A study of Homo sapiens with 6 samples.

Results

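The transcription factors that give the lung mesenchyme its identity were followed in MRC5 fibroblasts as a set of 10 genes, chosen by symbol and found in the deposited count table through their gene identifiers. The set holds the T-box factors *TBX2*, *TBX3*, *TBX4* and *TBX5*, the forkhead factors *FOXF1* and *FOXF2*, the basic helix-loop-helix (bHLH) factor *TCF21*, the homeobox factors *MEOX2* and *MEIS1*, and the zinc finger factor *OSR1*. These are 10 of 58676 gene identifiers in the table, and all 10 passed the filter of at least 10 counts over the 6 libraries, as did 19072 genes in all.

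MRC5 is a line of human fetal lung fibroblasts, so the values describe 1 line in culture. All cells were kept for 24 h in conditioned media (CM) from ATIIER:KRASV12 cells, a human alveolar type II (ATII) epithelial line in which 4-hydroxytamoxifen (4-OHT) switches on an oncogenic RAS. Control ATII CM, from ATII cells without 4-OHT, was used for 3 libraries, and 4-OHT ATII CM, from ATII cells given 4-OHT, for 3 more. Agents that the ATII cells release after RAS activation and 4-OHT carried over in their medium cannot be told apart in this design.

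In the embryo, the lung grows as an epithelial tube inside a sleeve of mesoderm, and signals pass both ways between them. The T-box factors of the sleeve act on the fibroblast growth factor and Wnt signals that drive branching, *FOXF1* responds to Sonic hedgehog from the epithelium, and *TCF21* marks mesenchyme that later gives rise to fibroblasts. Several of these genes stay on in cultured lung fibroblasts and serve as a record of the organ the cells came from.

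Every factor had a higher mean in 4-OHT ATII CM, and 5 were upregulated DEGs (differentially expressed genes with an adjusted p below 0.05), namely *TBX3*, *FOXF2*, *FOXF1*, *TCF21* and *OSR1*. None of the 10 was a downregulated DEG. Over all genes tested, 2.95% were upregulated DEGs and 2.76% downregulated DEGs. Among the 9202 genes with a mean of at least 10 CPM (counts per 1000000 counts of the library), 5.54% were upregulated, and 8 of the 10 factors, including all 5 DEGs, reached that level. The changes were small. The 5 DEGs rose between 1.11- and 1.18-fold (log2 fold change 0.15 to 0.24), below the median size of 0.26 on the log2 scale among DEGs of either direction. The median log2 fold change of the 10 factors was 0.17, against -0.0020 for all genes tested, of which 49.5% lay above 0. In 7 of the 10, all 4-OHT libraries lay above all control libraries, which held for 11.7% of all genes tested.

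The number of DEGs in the set depended on single libraries. Leaving out 1 library at a time gave between 1 and 6. Without 4-OHT replicate 2 only *TBX3* remained a DEG of the 5, and without 4-OHT replicate 3 *TBX3* and *FOXF2* did. Without control replicate 1 the 3 factors called were *TBX3*, *FOXF2* and *TCF21*, and without control replicate 3 they were *TBX3*, *FOXF2* and *FOXF1*. Over all genes the count of DEGs was 1090 and ranged from 533 without 4-OHT replicate 2 to 1530 without control replicate 2, with 663 without control replicate 3 and 615 without 4-OHT replicate 3.

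Library totals ran from 17691849 to 26389449 counts, lowest in control replicate 2, which also stood apart from the other control libraries on the second principal component (-9.2 against 4.88 and 4.47). Without it, the 5 DEGs of the set were still called and *TBX2* joined them. The labels do not say whether replicates were separate cultures, so p values measure the spread between these libraries, which may be technical. In bulk RNA, a change in the share of cells that express a gene and a change in RNA per cell cannot be told apart. Fibroblast markers were abundant, their summed level being 41020 to 44535 CPM in control and 42888 to 44629 CPM in 4-OHT ATII CM. Of 9 epithelial markers, *NKX2-1* was at 0 in every library, 5 were tested and none was a DEG, and the sum was 90.5 to 96.9 CPM in control and 88.6 to 94.6 CPM in 4-OHT ATII CM, nearly all of it *KRT8*, *KRT18* and *KRT19*. The endothelial markers *PECAM1* and *CDH5* were at 0. Of the 3 endothelial markers tested, *VWF* was at 0.41 and 0.34 CPM and *CLDN5* at 0.105 and 0.065 CPM on average (adjusted p = 0.84 and 0.87), and *TEK*, a receptor for angiopoietins, rose from 129 ± 9.06 to 167 ± 4.57 CPM (SD, n = 3, adjusted p = 0.00016).

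Promoter sequences are shown for the upregulated factors that had an entry and for *TBX5*, whose start region overlaps an antisense gene. RefSeq promoters on GRCh38.p14 were available for 6 of the 10 factors, with 7 entries, and *TBX2*, *TBX3*, *FOXF1* and *OSR1* had none. The lines below give the 250 bases before the start of 2 of the upregulated factors, *FOXF2* (chr6:1389326-1389575, plus strand) and *TCF21* (chr6:133888863-133889112, plus strand), and of both starts of *TBX5* (chr12:114408443-114408692 and chr12:114408013-114408262, minus strand). Each runs 5′ to 3′ on the strand of the gene, and capitals mark matches to the searched motifs on either strand.
FOXF2: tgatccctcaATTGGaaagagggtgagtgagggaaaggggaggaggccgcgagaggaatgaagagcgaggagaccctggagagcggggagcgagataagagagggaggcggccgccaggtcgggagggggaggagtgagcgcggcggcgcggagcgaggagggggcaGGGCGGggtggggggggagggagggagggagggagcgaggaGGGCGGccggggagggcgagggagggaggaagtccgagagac
TCF21: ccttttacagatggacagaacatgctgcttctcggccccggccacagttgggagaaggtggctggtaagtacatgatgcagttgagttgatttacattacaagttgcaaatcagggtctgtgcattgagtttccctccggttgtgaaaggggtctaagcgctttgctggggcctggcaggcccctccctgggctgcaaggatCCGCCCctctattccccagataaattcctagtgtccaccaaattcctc
TBX5, outer start: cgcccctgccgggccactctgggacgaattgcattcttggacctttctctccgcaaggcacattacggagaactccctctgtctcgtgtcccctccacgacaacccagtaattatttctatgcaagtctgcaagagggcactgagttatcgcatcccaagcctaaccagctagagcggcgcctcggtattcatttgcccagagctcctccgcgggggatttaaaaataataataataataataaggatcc
TBX5, inner start: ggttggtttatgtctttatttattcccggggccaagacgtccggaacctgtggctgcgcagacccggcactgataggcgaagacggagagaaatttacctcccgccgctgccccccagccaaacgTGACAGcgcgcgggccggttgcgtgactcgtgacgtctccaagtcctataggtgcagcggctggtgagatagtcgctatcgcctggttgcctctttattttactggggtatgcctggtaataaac

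The windows differed in base composition. The *FOXF2* window was 70.8% G and C and held 20 CpG dinucleotides, 1.006 times the number its base content predicts, whereas the *TCF21* window was 52.8% G and C with 5 CpG and a ratio of 0.287. The medians over 35116 promoters were 58.0% and 0.558. *FOXF2* had 2 GC boxes (GGGCGG) at 42 and 83 bases before the start and a reversed CCAAT box at 240, and *TCF21* had a reversed GC box at 48. GC boxes occurred in 42.6% of all promoters and CCAAT in 32% of them. The outer *TBX5* window held none of the 8 motifs searched, and the inner one held the MEIS-type motif TGACAG, present in 13% of promoters, at 125 bases before the start. The other entries, of *TBX4*, *MEIS1* and *MEOX2*, held 1, 1 and 3 matches, and no match overlapped another. The letters of the T-box (GGTGTGA, 2.76% of promoters), forkhead (TGTTTAC, 2.98%), GLI (GACCACCC, 0.849%) and E-box (CAGCTG, 14%) motifs were in none of the 7 windows, and TATAAA (10.7%) was found in that of *MEOX2* alone.

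The levels of the 10 factors spanned a wide range. On the scale of CPM per kb of merged exons, *FOXF1* was the highest at 109 ± 2.96 in control ATII CM (SD, n = 3). Its mean over all 6 libraries lay above 98.3% of the genes tested. In control ATII CM *FOXF2* followed at 67.3 ± 2.63 and *TBX2* at 51.9 ± 2.18. The forkhead pair and *TBX2* were therefore among the most abundant mRNAs per length in these cells. *TBX3* stood at 24.5 ± 0.525, *TCF21* at 13.5 ± 0.199 and *TBX5* at 9.86 ± 0.268 CPM per kb. *OSR1* was at 8.16 ± 0.207 and *MEIS1* at 7.18 ± 0.364. *TBX4* was far lower, at 1.58 ± 0.0781, and *MEOX2* lowest at 0.094 ± 0.052. In control ATII CM, *FOXF1* was 13.3 times as abundant per length as *OSR1*. The order was the same in both media, and no neighbours in it overlapped over the 3 libraries of either group.

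**Figure D1:**
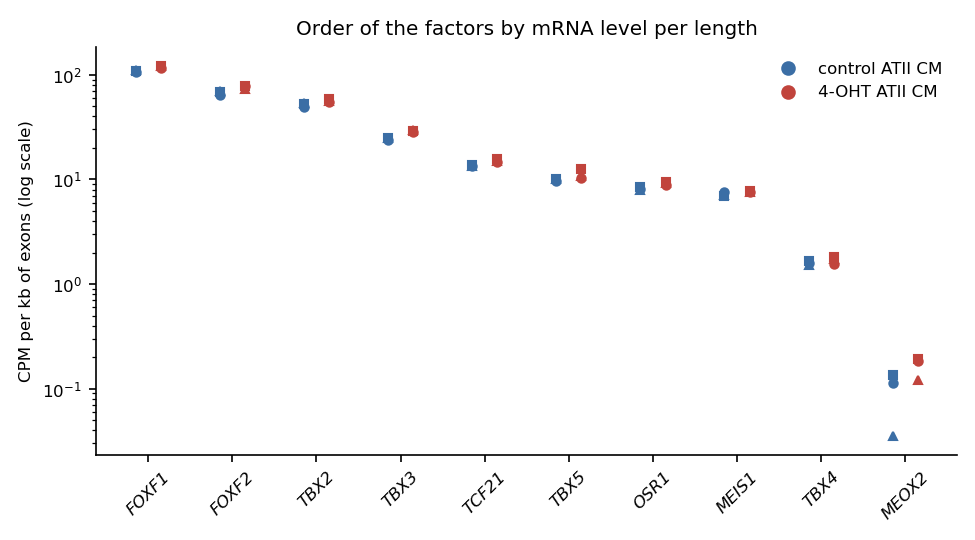
Level of each factor in CPM per kb of exons (log axis) in the 3 control ATII CM libraries (blue) and the 3 4-OHT ATII CM libraries (red), with circles, squares and triangles for replicates 1, 2 and 3. The order from *FOXF1* (109 CPM per kb in control) to *MEOX2* (0.094) was the same in both media.

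The T-box genes lie in a pair of clusters that arose by duplication. *TBX2* (chr17:61399896-61409466, plus strand) and *TBX4* (chr17:61452404-61485110, plus strand) are 42938 bp apart, and *TBX5* (chr12:114353931-114408442, minus strand) and *TBX3* (chr12:114670254-114684164, minus strand) are 261812 bp apart. *TBX2* and *TBX3* are mainly repressors, and *TBX4* and *TBX5* mainly activators.

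*TBX3* had the smallest p of the set. Its level was 142, 147 and 148 CPM in control replicates 1 to 3 and 169, 173 and 175 CPM in the 4-OHT replicates. The 4-OHT libraries all lay above the control libraries, with a gap wider than the spread within either group. The mean went from 146 ± 3.12 to 172 ± 3.17 CPM (log2 fold change 0.24, SE 0.035, adjusted p = 0.00056), and *TBX3* ranked 156 by p among all genes. It was a DEG under each of the 15 alternatives run, with log2 fold changes from 0.22 to 0.26.

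*TBX2*, its paralog, is a repressor that keeps embryonic lung mesenchyme dividing. It was at 298, 319 and 323 CPM in control and 330, 352 and 339 CPM in 4-OHT ATII CM. The groups did not overlap, but control replicate 1 was low and control replicate 3 came close to the lowest 4-OHT library. The means were 313 ± 13.1 and 340 ± 10.7 CPM (log2 fold change 0.12, SE 0.037, adjusted p = 0.081), short of the threshold. *TBX2* passed it under 5 of 15 alternatives, among them DESeq2 (adjusted p = 0.048), the correction for GC content and length (0.022) and the fit without control replicate 2 (0.024).

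*TBX5*, needed for lung bud formation, was at 41.7, 43.6 and 43.7 CPM in control and 45.1, 54.3 and 47.2 CPM in 4-OHT ATII CM. Its 4-OHT replicate 2 was the highest, and the groups did not overlap. The means of 43.0 ± 1.17 and 48.9 ± 4.81 CPM gave a log2 fold change of 0.19 (SE 0.060, 95% confidence interval 0.059 to 0.31, adjusted p = 0.090), and without 4-OHT replicate 2 it was 0.10. *TBX5* became a DEG without 4-OHT replicate 1 (adjusted p = 0.036) and without the filter on low counts.

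*TBX4*, which with *TBX5* drives *Fgf10* expression in lung mesenchyme, was the scarce member of the family. It read 6.28, 6.66 and 6.05 CPM in control and 6.21, 7.26 and 7.0 CPM in 4-OHT ATII CM, with overlapping groups. The difference (log2 0.11, SE 0.11, 95% confidence interval -0.12 to 0.35, adjusted p = 0.67) leaves room for a rise as large as that of *TBX3*.

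**Figure D2:**
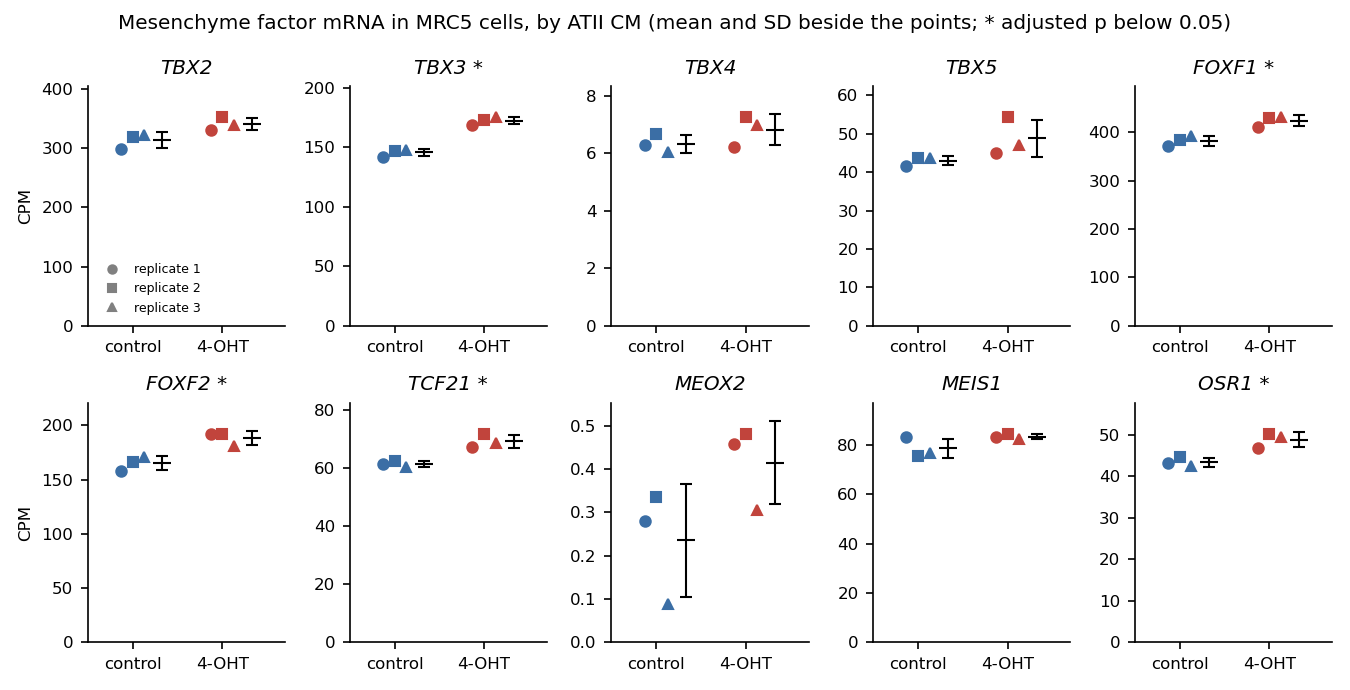
CPM of each of the 10 factors in the 3 control ATII CM libraries (blue) and the 3 4-OHT ATII CM libraries (red), with circles, squares and triangles for replicates 1, 2 and 3, the mean and SD beside them, and an asterisk for an adjusted p below 0.05. The 5 marked genes show 3 red points above 3 blue points, and the same is seen without the mark for *TBX2* and *TBX5*.

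*FOXF1* (chr16:86510527-86515418, plus strand) is a target of hedgehog signaling that the lung mesenchyme and its capillaries depend on. Its control libraries held 371, 385 and 392 CPM and its 4-OHT libraries 410, 430 and 431 CPM. The groups were separate by more than the SD of either, the means being 382 ± 10.4 and 423 ± 11.6 CPM (log2 fold change 0.15, SE 0.034, adjusted p = 0.015). The call was lost without control replicate 1 (adjusted p = 0.070), without 4-OHT replicate 2 (0.085) and without 4-OHT replicate 3 (0.11).

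*FOXF2* (chr6:1389576-1395603, plus strand), the close relative of *FOXF1* in mesenchyme next to endoderm, whose promoter is printed above, rose by somewhat more. It was at 158, 166 and 171 CPM in control and at 192, 192 and 181 CPM in 4-OHT ATII CM. The 4-OHT replicate 3 was the lowest of its group yet above every control library. The means were 165 ± 6.43 and 188 ± 6.24 CPM (log2 fold change 0.19, SE 0.039, adjusted p = 0.0083). Only the fit without 4-OHT replicate 2 (adjusted p = 0.065) lost the call among 15 alternatives.

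*TCF21* (chr6:133889138-133895553, plus strand) is a bHLH factor of lung, kidney and heart mesenchyme. It was steady in control ATII CM at 61.4, 62.3 and 60.5 CPM and higher in 4-OHT ATII CM at 67.3, 71.8 and 68.4 CPM. The gap between the groups exceeded the range of either. The means of 61.4 ± 0.905 and 69.2 ± 2.34 CPM gave a log2 fold change of 0.17 (SE 0.040, adjusted p = 0.016). The call was lost without control replicate 3 (adjusted p = 0.094), 4-OHT replicate 2 (0.099) or 4-OHT replicate 3 (0.060).

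*OSR1* (chr2:19351485-19358653, minus strand), a zinc finger factor of the foregut mesoderm that acts upstream of *Wnt2* in lung specification, showed a similar pattern. It read 43.1, 44.5 and 42.4 CPM in control and 46.9, 50.2 and 49.3 CPM in 4-OHT ATII CM. All 4-OHT libraries were above all control libraries. The means were 43.3 ± 1.10 and 48.8 ± 1.74 CPM (log2 fold change 0.17, SE 0.045, adjusted p = 0.030). This was the least firm of the 5 calls, with an adjusted p of 0.076 by DESeq2, 0.084 without control replicate 1, 0.15 without control replicate 3, and 0.14 without 4-OHT replicate 2 or 3.

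*MEIS1* (chr2:66433452-66573869, plus strand), a TALE homeobox protein that binds DNA beside HOX proteins, overlapped between the groups. Its libraries held 83.0, 75.6 and 76.8 CPM in control and 83.0, 84.4 and 82.4 CPM in 4-OHT ATII CM. Control replicate 1 sat at the level of the 4-OHT libraries. The means were 78.5 ± 3.98 and 83.3 ± 1.05 CPM (log2 difference 0.084, SE 0.042, 95% confidence interval -0.0045 to 0.17, adjusted p = 0.32), and none of the 15 alternatives called it.

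*MEOX2* (chr7:15611212-15686812, minus strand), a homeobox gene of mesoderm and vessels, was close to the lower limit of the table. It had 6, 6 and 2 counts in control and 10, 12 and 8 counts in 4-OHT ATII CM, or 0.24 and 0.41 CPM on average. After scaling to depth the groups overlapped. The fitted log2 difference of 0.84 had a 95% confidence interval from -0.23 to 1.9 (adjusted p = 0.44), so that a change of this gene was not detectable at this depth.

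**Figure D3:**
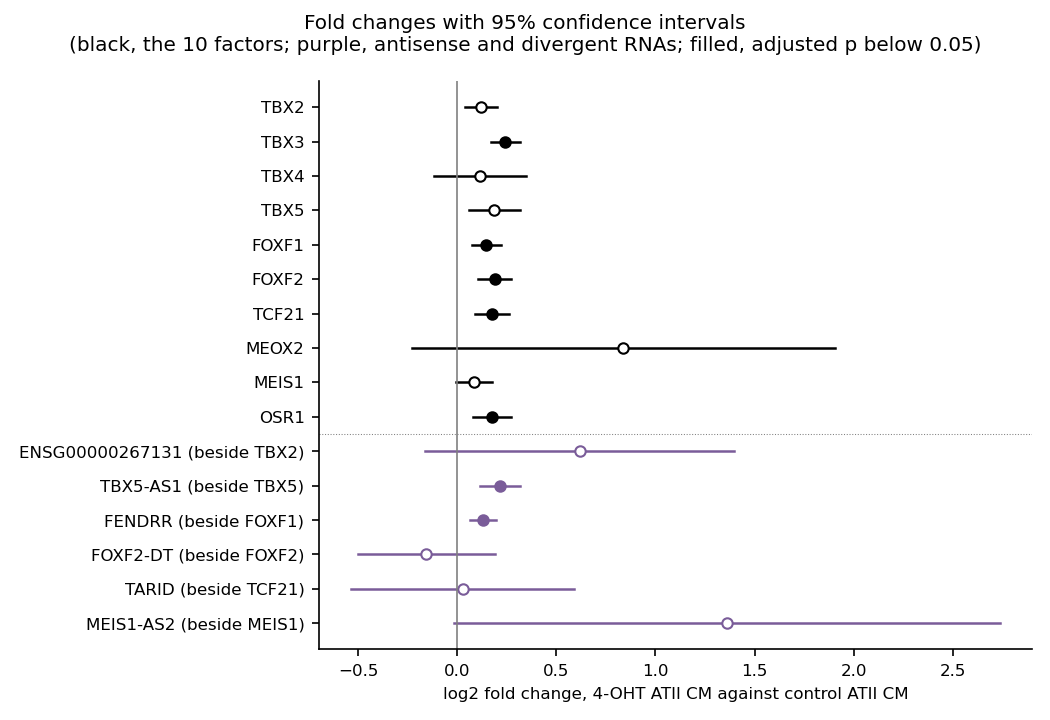
Log2 fold change of 4-OHT ATII CM against control ATII CM with its 95% confidence interval for the 10 factors (black) and for the 6 tested antisense or divergent RNAs (purple), filled where the adjusted p was below 0.05. All 10 factors lie above 0, and the intervals of *TBX4*, *MEOX2* and *MEIS1* cross it.

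Ratios within a library do not depend on how libraries are scaled to each other and show whether related factors moved together. The log2 ratio of *TBX2* to *TBX3* was 1.07, 1.12 and 1.13 in control and 0.97, 1.02 and 0.95 in 4-OHT ATII CM, without overlap. The mean difference was -0.12, so that *TBX3* was higher relative to *TBX2* in every 4-OHT library than in any control library. An exact two-sided permutation test gave p = 0.1, the smallest that 3 against 3 libraries allow, and 0.5 after Benjamini-Hochberg adjustment over the 5 ratios compared, so no ratio could pass 0.05. The other ratios overlapped between the groups. They shifted by -0.075 for *TBX4* to *TBX5* (exact p = 0.2), -0.043 for *FOXF1* to *FOXF2* (exact p = 0.5), 0.014 for *TBX2* to *TBX4* (exact p = 0.6) and 0.062 for *TBX3* to *TBX5* (exact p = 0.4). For *TBX2* to *TBX4* the sign turned in 3 of 6 fits that left out a library.

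**Figure D4:**
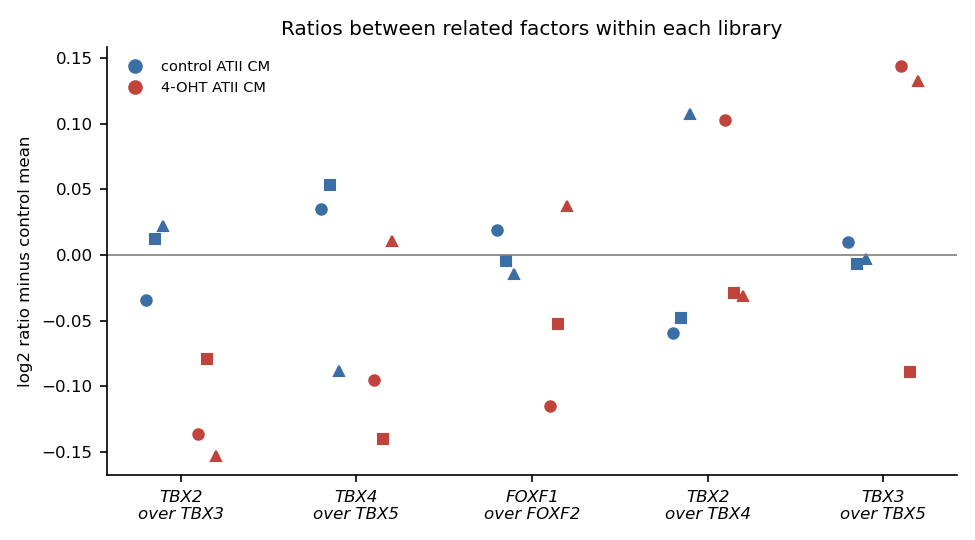
Log2 ratio between related factors in each library after subtraction of the control mean, for 3 control ATII CM (blue) and 3 4-OHT ATII CM libraries (red), with circles, squares and triangles for replicates 1, 2 and 3. For *TBX2* over *TBX3* the red points lie below all blue points, by 0.12 on average, and for the other 4 ratios the colors overlap.

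Several factors share their start region with a long noncoding RNA. By the rule that a gene has exons in the span of a factor or starts on the opposite strand within 5 kb of the start of the factor, 11 such genes were found and 6 had enough counts to be tested. *FENDRR* (chr16:86474529-86509099, minus strand), which starts 1428 bp from *FOXF1* and runs the other way, was expressed at 307, 300 and 312 CPM in control and 333, 335 and 338 CPM in 4-OHT ATII CM. The groups were well apart, and the means of 306 ± 5.87 and 335 ± 2.68 CPM gave a log2 fold change of 0.13 (SE 0.031, adjusted p = 0.021), close to that of *FOXF1*. The call was lost without control replicate 1 or 3 and without 4-OHT replicate 2 or 3, with an adjusted p of up to 0.13.

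*TBX5-AS1* (chr12:114408191-114412831, plus strand) starts inside the annotated span of *TBX5*, overlaps its exons and begins within the inner promoter window printed above. It was at 48.3, 49.7 and 44.6 CPM in control and 56.8, 54.1 and 54.5 CPM in 4-OHT ATII CM. The groups did not overlap, and the means were 47.5 ± 2.63 and 55.1 ± 1.45 CPM (log2 fold change 0.22, SE 0.047, adjusted p = 0.011). It was no longer a DEG without control replicate 3, 4-OHT replicate 1 or 4-OHT replicate 3 (adjusted p up to 0.095). Whether counting used the strand is not given, so reads from the shared exon bases cannot be assigned to *TBX5* or to its antisense gene.

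The other 4 tested RNAs gave no DEG. *TARID*, antisense to *TCF21* and known for its part in demethylation of the *TCF21* promoter, had 0.930 ± 0.118 CPM in control and 0.937 ± 0.174 CPM in 4-OHT ATII CM (adjusted p = 0.98), and *FOXF2-DT*, divergent from *FOXF2*, had 2.85 ± 0.288 and 2.55 ± 0.149 CPM (adjusted p = 0.70). *MEIS1-AS2* had between 1 and 8 counts a library (adjusted p = 0.29), and ENSG00000267131, whose exons overlap those of *TBX2*, had between 6 and 23 (adjusted p = 0.44). *MIR6720* and ENSG00000237070 had no counts, and ENSG00000267137, *LINC02587* and *MEIS1-AS3* no more than 2 in any library. *TBX2-AS1*, outside this rule and named after its values were seen, was at 12.4 ± 0.571 and 13.8 ± 0.30 CPM (log2 difference 0.14, adjusted p = 0.35).

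The nearest protein-coding gene on each side of each factor was also read. Of 16 such genes outside the set, 14 were tested, 1 was upregulated and none downregulated, against 2.95% and 2.76% of all genes tested, and the median log2 fold change was 0.012. With 14 genes this count is near the background. The DEG was *FOXQ1* (chr6:1312440-1314748), a forkhead gene 74828 bp from *FOXF2*, which rose from 17.7 ± 0.650 to 21.2 ± 0.611 CPM (log2 fold change 0.25, adjusted p = 0.029). It missed the threshold in 7 of 15 alternatives, DESeq2 and the replicate block among them. *FOXC1*, on the other side of *FOXF2*, was at 35.1 ± 3.08 and 37.4 ± 1.38 CPM (adjusted p = 0.47). *IRF8* and *AGMO*, beside *FOXF1* and *MEOX2*, had too few counts to be tested.

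Other genes of the same families were counted next. Of 13 other T-box genes 7 had no counts, 4 were tested and none was a DEG, while *MGA* had the highest level of the 4, at 20.5 ± 4.32 and 18.4 ± 1.00 CPM, and was a downregulated DEG without control replicate 2 (adjusted p = 0.023). Of 25 other forkhead genes 21 were tested, with 2 upregulated and 2 downregulated, against 2.95% and 2.76% of all genes tested, and a median log2 fold change of 0.032. Besides *FOXQ1*, *FOXN3*, a repressor of cell cycle genes, rose from 106 ± 5.66 to 118 ± 2.40 CPM (adjusted p = 0.049). *FOXM1*, the forkhead activator of mitotic genes, fell from 31.0 ± 1.41 to 22.0 ± 1.73 CPM (adjusted p = 0.00023). *FOXC2* (chr16:86566829-86569728), which lies in the same forkhead cluster as *FOXF1*, fell from 8.01 ± 0.237 to 5.98 ± 0.587 CPM (adjusted p = 0.030), opposite to *FOXF1*. *FOXN3* lost its call in 7 and *FOXC2* in 5 of 15 alternatives.

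Of a list of 14 TALE homeobox genes, *MEOX1* and *OSR2*, relatives of *MEIS1*, *MEOX2* and *OSR1*, 12 were tested, though not *MEOX1*. Of these 12, 11 lay above 0, where 49.5% of all genes tested did, and the median log2 fold change was 0.078. The count of DEGs on this list is not reported here. *MEIS2* was at 20.4 ± 0.643 and 21.2 ± 1.42 CPM (adjusted p = 0.75) and *MEIS3* at 72.2 ± 4.99 and 76.1 ± 2.50 CPM (adjusted p = 0.45), both named after their values were seen. Of 11 tested mesodermal bHLH genes and their inhibitors, 3 were upregulated and none downregulated, against 2.95% and 2.76% of all genes tested. The upregulated share was 5.54% among genes with a mean of at least 10 CPM. The list had a median of 0.14. All 3 upregulated genes were ID genes, whose products hold bHLH proteins off DNA. *ID2* rose from 57.3 ± 3.27 to 73.4 ± 1.81 CPM (log2 fold change 0.36, adjusted p = 0.00016), *ID3* from 100.4 ± 10.9 to 124 ± 4.36 CPM (0.31, adjusted p = 0.0045) and *ID1* from 63.0 ± 5.43 to 73.7 ± 0.525 CPM (0.23, adjusted p = 0.014). The dimer partner of *TCF21*, *TCF12*, was at 179 ± 5.17 and 189 ± 0.780 CPM (adjusted p = 0.25).

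Of 26 tested transcription factors of other mesenchyme, 3 were upregulated and none downregulated, where all genes tested gave 2.95% and 2.76%. The upregulated share among genes with a mean of at least 10 CPM was 5.54%. On this list 14 lay above 0 and 12 below, against 49.5% of all genes above 0, and the median was 0.042. The downregulated count was 3 without control replicate 2, 2 without the filter on low counts and 1 with library totals without TMM. *SOX4* rose from 241 ± 6.28 to 303 ± 10.1 CPM (log2 fold change 0.33, adjusted p = 4.6e-05). *NR2F1*, a nuclear receptor of mesenchyme and neural crest, rose from 273 ± 13.4 to 335 ± 9.33 CPM (0.30, adjusted p = 0.00024). *PRRX2*, a homeobox gene of mesenchyme, went from 48.3 ± 2.92 to 56.6 ± 1.33 CPM (0.23, adjusted p = 0.0072). *ID2*, *ID3*, *SOX4*, *NR2F1* and *PRRX2* were DEGs under each of the 15 alternatives, and *ID1* lost its call without control replicate 1, 4-OHT replicate 2 or 4-OHT replicate 3.

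Of 26 tested signals and receptors known to act on these factors or below them, 5 were upregulated and 1 downregulated, where all genes tested gave 2.95% and 2.76%. Among genes with a mean of at least 10 CPM, 5.54% were upregulated. The upregulated count was 3 by DESeq2, 4 with library totals without TMM, and 3 without control replicate 3, 4-OHT replicate 1 or 4-OHT replicate 3. *WNT2*, a Wnt ligand of lung mesenchyme, rose from 63.6 ± 2.17 to 84.2 ± 1.77 CPM (log2 fold change 0.40, adjusted p = 2.3e-05). *BMP4*, a mesenchymal ligand that induces ID genes, rose from 279 ± 8.77 to 351 ± 11.8 CPM (0.34, adjusted p = 4.6e-05). The platelet-derived growth factor receptor *PDGFRA* rose from 831 ± 56.0 to 968 ± 19.5 CPM (0.22, adjusted p = 0.0034), and *WNT2*, *BMP4* and *PDGFRA* were DEGs under all 15 alternatives. *SMO*, the hedgehog signal transducer above *FOXF1*, rose from 47.2 ± 0.425 to 53.1 ± 0.969 CPM (0.17, adjusted p = 0.019), but not by DESeq2 or in 4 of 6 fits that left out a library. The hedgehog readouts *PTCH1* and *GLI1* were at 37.6 ± 2.03 and 38.0 ± 0.925 CPM (adjusted p = 0.94) and at 5.68 ± 0.171 and 4.6 ± 0.753 CPM (adjusted p = 0.25). *FGF10*, the branching signal under *TBX4* and *TBX5*, was scarce at 1.57 ± 0.645 and 1.32 ± 0.288 CPM (adjusted p = 0.76). The fifth upregulated gene was the BMP receptor *BMPR1A* (adjusted p = 0.042), named after its value was seen, which lost its call in 6 of 15 alternatives, among them DESeq2 (adjusted p = 0.062) and library totals without TMM (0.060). *NOTCH2* fell from 159 ± 20.2 to 131 ± 0.335 CPM (adjusted p = 0.016), with a wide control spread of 137 to 176 CPM, and lost its call in 6 of 15 alternatives, among them DESeq2 and all fits without a library except that without control replicate 2.

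*TBX2* and *TBX3* are known repressors of cell cycle inhibitors, and of 6 genes on that list only *CDKN1B* was a DEG, upregulated as were 2.95% of all genes tested. It rose from 59.4 ± 3.35 to 66.7 ± 1.46 CPM (adjusted p = 0.031) and lost the call by DESeq2 and in 5 of 6 fits without a library. *CDKN1A*, the p21 gene, was at 1210 ± 38.3 and 1261 ± 10.7 CPM (adjusted p = 0.30, and 0.026 without control replicate 2), and *CDKN2A*, the classic target of both factors, at 25.8 ± 0.907 and 22.8 ± 0.352 CPM (log2 difference -0.18, adjusted p = 0.085). Genes of proliferation were called in the opposite direction. Of 17, 16 were downregulated, against 2.76% of all genes tested, with a median log2 fold change of -0.46 and a summed level of 660 to 701 CPM in control and 490 to 530 CPM in 4-OHT ATII CM. *MKI67* fell from 41.5 ± 4.6 to 24.2 ± 0.896 CPM and *TOP2A* from 98.5 ± 4.12 to 66.7 ± 4.58 CPM, whereas *PCNA*, the exception and named after its value was seen, was at 68.9 ± 2.08 and 63.9 ± 4.28 CPM (adjusted p = 0.24). The part of this shift in the change of the mesenchyme factors was not tested.

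**Figure D5:**
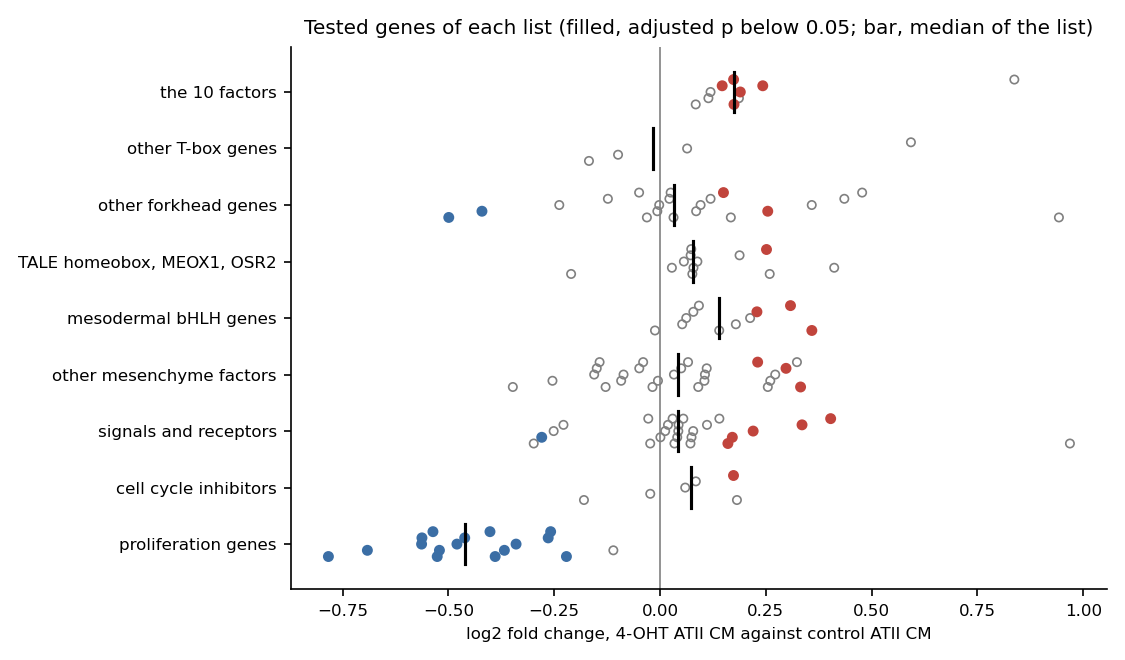
Log2 fold change of 4-OHT ATII CM against control ATII CM for the tested genes of each list, with filled points for an adjusted p below 0.05 (red higher, blue lower), open grey points for the rest and a bar at the median of the list. The 10 factors all lie right of 0 with a median of 0.17, and the proliferation genes all lie left of it with a median of -0.46.

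The genes whose profile over the 6 libraries lay nearest to the mean profile of the 10 factors were sought among genes with a mean of at least 10 CPM over all 6 libraries. Since every 4-OHT value of that mean profile exceeds its control values, genes chosen this way differ between the groups by choice, and their levels are given without a test. By root mean square distance of centred log2 CPM they were *ACKR3* (0.021), *EEIG2* (0.027), *ALDOC* (0.027), *RXRA* (0.030) and *MSC* (0.031). The mean profile was highest in 4-OHT replicate 2 (0.17) and lowest in control replicate 3 (-0.18), and it weighs *MEOX2* with its few counts as much as any other factor. *TCF21* (0.037) and *OSR1* (0.040) were the factors nearest to it, and *MEOX2* (0.46) was the farthest. *RXRA*, the retinoid X receptor alpha, was at 104 ± 3.97 and 121 ± 1.18 CPM, *EEIG2* at 29.8 ± 0.529 and 34.5 ± 1.2 CPM and *ALDOC*, a glycolytic aldolase, at 14.4 ± 0.921 and 17.0 ± 0.587 CPM. *ACKR3*, a scavenging chemokine receptor, was at 9.50 ± 0.479 and 11.2 ± 0.524 CPM, so it passed the filter only through its 4-OHT libraries. *MSC*, a bHLH repressor, was at 17.8 ± 0.683 and 20.1 ± 0.320 CPM.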

How the data were processed

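RNA-Seq of MRC5 fibroblasts in control ATII CM (n = 3) and 4-OHT ATII CM (n = 3) was analysed. Reads were paired. The authors used Trim Galore for trimming, HISAT2 (version 2.1.0) for mapping to GRCh38 and featureCounts (version 1.6.5) for counting. The deposited values are raw counts by gene, not normalized, beside the length of the merged exons in bases. Annotation release, strand setting and treatment of multimapping reads are not given in the sources used here, and the name of the NEBNext Ultra kit does not state strand. The submitters' processing notes also name FastQC and MultiQC. The table had 58721 lines for 58676 identifiers, since 45 were each on a pair of lines whose counts were added. Positions are those of the table. GENCODE release 44 gave symbols for 58207 identifiers.

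Genes with at least 10 counts over the 6 libraries (19072) were tested with edgeR (version 4.0.16, R 4.3.3) by the quasi-likelihood test with TMM normalization and group as the only term. p values were adjusted over all genes tested by the Benjamini-Hochberg method at a threshold of 0.05. Common variation between replicates was 4.36%. Library sizes for CPM were those after TMM, and the prior count for log2 CPM was 2. SE and 95% intervals were derived from the fold change and its F statistic and cover the spread between these libraries. Alternatives were DESeq2 (version 1.42.0), limma-voom (limma version 3.58.1), other scalings and filters, a GC content and length offset (splines of 5 degrees of freedom, GC values for 99.4% of genes), the replicate number as a block, and leaving out each library. The fits were tested on simulated data. Promoter windows were cut from RefSeq starts on GRCh38.p14, where the starts of *FOXF2* and of *TBX5* (outer) equal those of the table.

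Text names the 10 factors, their antisense, divergent and neighbouring genes, up to 4 called members per list and direction, cell type markers and the 5 nearest profiles. Results of some genes under this rule are not reported here. Members, lists and tests were chosen with earlier results of these data known, so they give no independent support. The paper's other assays were not analysed here.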

Additional observations from a re-analysis of the deposited data

How the results depend on the processing

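The number of DEGs over all genes, 1090, ranged from 533 to 1530 when 1 library was left out, and from 954 (DESeq2) to 1601 (no filter on low counts) under the other alternatives. DEGs among the 10 factors ranged from 1 to 6 on leaving out 1 library, and from 5 to 7 otherwise, with none downregulated in any fit. On the gene lists other than the 10 factors and the cell type markers, 15 DEGs were upregulated and 19 downregulated, of which 16 were proliferation genes. All genes tested gave 2.95% and 2.76%. The 15 and 19 ranged from 9 to 16 and from 14 to 24 without 1 library. These fits hold fewer libraries. The replicate block gave 985 DEGs and kept 5 of the factors as DEGs. The labels do not say whether replicate numbers pair libraries. Deviations from the group means of libraries with the same number correlated at -0.014, -0.10 and -0.093. Those of libraries with different numbers correlated at -0.064 to 0.16. Such deviations cancel out within a group, so these values cannot decide whether the numbers pair libraries. The numbers were not used as pairs. Among genes named here, the block ended the calls of *FOXQ1*, *FOXN3* and *VIM*. For *TARID* the sign turned with the GC content and length offset and the replicate block together (-0.0075), and its log2 fold change ranged from -0.12 to 0.14 without 1 library, as did those of *PTCH1* from -0.028 to 0.038 and *FGF10* from -0.46 to 0.12. The difference between groups in the log2 ratio of *TBX2* to *TBX4* ranged from -0.030 to 0.068 without 1 library, and the cause was not tested. The order of levels per kb stayed the same under the alternatives run. The depth limits *MEOX2*, *MEIS1-AS2* and ENSG00000267131, whose few counts leave wide intervals.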

Other observations

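Markers of fibroblast types and of their neighbours gave a mixed picture. Of 9 markers of fibroblasts in general, 4 were upregulated and 1 downregulated, against 2.95% and 2.76% of all genes tested. Among genes with a mean of at least 10 CPM, 5.54% were upregulated. *DCN*, the proteoglycan decorin, rose from 3878 ± 5.38 to 4872 ± 139 CPM (SD, n = 3, adjusted p = 2.7e-06), *LUM* from 510 ± 11.7 to 624 ± 12.0 CPM (adjusted p = 4.0e-05) and the collagen gene *COL3A1* from 4847 ± 143 to 5493 ± 113 CPM (adjusted p = 0.00046), beside *PDGFRA*, while *VIM*, the intermediate filament vimentin, fell from 1408 ± 31.9 to 1313 ± 19.2 CPM (adjusted p = 0.041), a call lost in 6 of 15 alternatives. The other DEGs among these markers held under all 15 alternatives. Of 7 tested alveolar fibroblast markers, the integrin gene *ITGA8* alone was called, at 140 ± 8.52 and 170 ± 3.12 CPM (adjusted p = 0.00079), and of 2 tested adventitial markers *SERPINF1* was, at 102 ± 2.27 and 118 ± 1.97 CPM (adjusted p = 0.0020). Upregulated DEGs made up 2.95% of all genes tested. With so few markers, these single calls say little about either list.

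Among 6 tested markers of myofibroblasts and smooth muscle, 1 was upregulated and none downregulated, against 2.95% and 2.76% of all genes tested. By sign, 4 lay above 0 and 2 below. The DEG was *MYOCD*, the myocardin coactivator of smooth muscle genes, which rose from 30.5 ± 2.80 to 37.8 ± 0.282 CPM (adjusted p = 0.0055). *CNN1* was lower without overlap, at 94.9 ± 3.44 and 87.0 ± 0.202 CPM, but missed the threshold (adjusted p = 0.077). *ACTG2* had a log2 difference of -0.018 (adjusted p = 0.84). *ACTA2*, which encodes smooth muscle actin, was at 380 ± 11.1 and 399 ± 9.62 CPM (adjusted p = 0.28). Of 5 tested pericyte markers, 1 was upregulated and 1 downregulated, against 2.95% and 2.76% of all genes tested. *RGS5* was higher (9.03 ± 0.848 and 12.9 ± 0.542 CPM, adjusted p = 0.0024) and *CSPG4* lower (114 ± 4.19 and 91.6 ± 1.22 CPM, adjusted p = 0.00014). Of 5 immune markers only *CD14* was tested, at 0.766 ± 0.178 and 1.48 ± 0.409 CPM (adjusted p = 0.060, and a DEG in 5 of 14 alternatives), and 3 mesothelial markers were tested with no DEG.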
